A study of Homo sapiens with 10 samples.

Results

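HD-MB03 is an established human Group 3 medulloblastoma cell line, and the 4 HD-MB03 libraries of the 10 in the study were compared here across all expressed genes. They were chosen by their titles and consisted of 1 parental library, 1 library from cells with the empty Tet-pLKO-puro vector and 2 libraries labelled shCRX, replicates 1 and 2. The shCRX libraries came from stable polyclonal populations with a doxycycline-inducible hairpin against CRX, and the labels give doxycycline at 4 µg/ml over 72 h for the whole series. The study used a pair of hairpins, and which of them a given library carries is not in the labels. The other 6 libraries came from D425, another Group 3 line, as 2 parental, 1 vector and 3 shCRX libraries. They served to test whether a change differed between lines. They also entered the same fit, and so the filter, the scaling and the estimate of spread behind the HD-MB03 p-values. No label ties libraries of a group to separate cultures, and the p-values therefore cover the spread among these libraries alone, part of which may be technical.

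CRX, the cone-rod homeobox protein, is a transcription factor of photoreceptors and pineal cells that binds short TAATCC-type sites and works with OTX2 and NRL. Group 3 medulloblastomas, tumours of the cerebellum in which MYC is often highly expressed, also transcribe many photoreceptor genes. The title of the series ties CRX to TGF-beta and activin signalling, in which ligands act through receptor kinases on SMAD proteins.

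The controls were shallow, with 2.08 M counted reads (parental) and 1.96 M (vector), whereas shCRX replicates 1 and 2 had 14.55 M and 14.26 M. A floor of 3 counts equals 1.44 and 1.53 CPM, the counts scaled to a common library size, in the controls and 0.206 and 0.210 CPM in the shCRX libraries, for counting error only. A gene with no control count may therefore be present at a level that the shCRX libraries would detect. Unaligned reads took 30.9% of the parental and 26.4% of the vector library, against 5.001% and 6.49% in the shCRX libraries. Each deposited library also carries a number. The HD-MB03 controls (62 and 60) and the D425 shCRX libraries (20, 27 and 49) have low numbers, and the HD-MB03 shCRX libraries and the D425 controls have higher ones. Within HD-MB03, library number, depth and arm cannot be told apart. The difference of the effects between lines sets all libraries of higher number against all of low number. A difference between lines and one between number sets therefore cannot be told apart in it.

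The line's identity was checked on marker lists. Group 3 markers summed to between 7811 and 8938 CPM in the 4 libraries, and microglial markers to at most 1.47 CPM, with AIF1, PTPRC, TYROBP, C1QA and C1QB at 0 in all 4. MYC alone, at 3513 to 5221 CPM by effective library sizes, made up a large part of the Group 3 sum. Other tissue lists were not empty: astrocyte and Mueller glia markers summed to 640 to 745 CPM and fibroblast markers to 231 to 288 CPM. Oligodendrocyte markers summed to 179 to 273 CPM and endothelial and pericyte markers to 146 to 216 CPM. The 8 markers of SHH tumours summed to 117.4 to 149.8 CPM, with ATOH1 at 0, and the 8 markers of WNT tumours to 403, 54.7, 584 and 578 CPM in the parental, vector and shCRX libraries, with WIF1 and DKK2 at 0. TNC, a matrix glycoprotein, made up most of the WNT sum in each of the 4 libraries. The 8 epithelial markers summed to 0.480, 1.53 and 0.206 CPM in the parental, vector and shCRX replicate 1 libraries and to 30.6 CPM in shCRX replicate 2, where KRT5, KRT14 and KRT19 were at 0.

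That library stood apart in other genes too. By a rule set after the values were seen, 31 protein-coding genes reached at least 10 CPM in shCRX replicate 2 and at most 2 CPM in each of the other 3 libraries. The same rule found 0 genes for shCRX replicate 1, 1 for the parental library and 6 for the vector library. IRS4, an adaptor of insulin signalling, was at 0 and 1.07 CPM in the controls, 0.143 in shCRX replicate 1 and 58.2 in replicate 2. LCP1, an actin-bundling protein of blood cells, was at 0 in the first 3 libraries and at 44.0 CPM in replicate 2. NUP210, a nuclear pore protein, SLIT2, an axon guidance ligand, and KRT8, a keratin of simple epithelia, reached 64.8, 44.9 and 22.1 CPM there. Whether cells of another kind are present in this library was not tested, nor was the part of these genes in the results below. The calls that hold without it are named with the counts of calls.

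The spread within an arm was compared with that between arms after thinning all libraries to equal depth, over 9486 genes of at least 10 CPM. The median absolute log2 difference per gene was 0.341 between the parental and vector libraries and 0.236 between the shCRX libraries. Between arms it was 0.512 and 0.419 for the parental library against shCRX replicates 1 and 2, and 0.353 and 0.308 for the vector library. By this median the vector library lay nearer to shCRX replicate 2 than to the parental library, but the Pearson correlation of log2 CPM across genes was lower, 0.917 against 0.935. The share of genes that differed more than 2-fold, a log2 difference over 1, was 6.28% between the controls and 6.41% between the vector library and shCRX replicate 2.

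**Figure D1:**
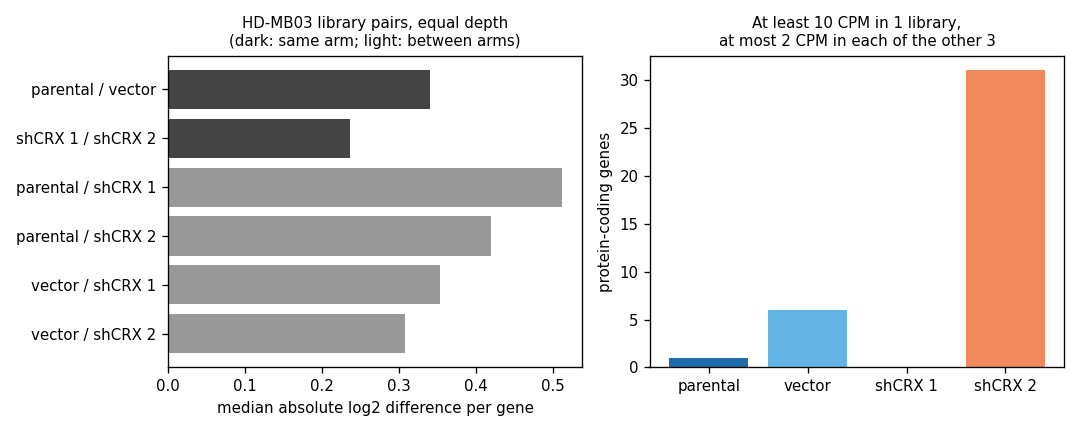
Left: bars give the median absolute log2 difference per gene for each pair of HD-MB03 libraries at equal depth, dark within an arm and light between arms; the value of 0.341 for the controls exceeds the 0.308 for vector against shCRX replicate 2. Right: bars count protein-coding genes of at least 10 CPM in 1 library and at most 2 CPM in each of the other 3, with 31 for shCRX replicate 2.

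CRX itself was not lower in the libraries labelled shCRX. It had 24 and 23 counts in the parental and vector libraries and 388 and 328 in shCRX replicates 1 and 2, or 12.5, 12.3, 27.7 and 23.5 CPM. Both shCRX libraries lay above both controls. The log2 fold change was 1.04 ± 0.36 (SE, 2 against 2 libraries), with an adjusted p of 0.174 by edgeR's quasi-likelihood test. An exact two-sided permutation test over the 4 libraries gave p = 0.333, the smallest that 2 against 2 allow. Because the targeted gene goes against the label, every direction below is that of the libraries labelled shCRX relative to the controls. Whether the labels of the arms were exchanged in HD-MB03 was not tested, and the labels are kept as given. In D425 the libraries labelled shCRX were lower in CRX, with a log2 fold change of -1.10 (adjusted p = 0.0436 by edgeR). The effect in HD-MB03 minus that in D425 was 2.14 (adjusted p = 0.0199 by edgeR), and this difference lost its call without the parental library, the vector library or shCRX replicate 1 (adjusted p = 0.103, 0.0594 and 0.0851 by edgeR) and with limma-voom (0.0759).

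The promoter of CRX is shown because it carries the TAATCC letters that CRX-type factors recognise, read here on either strand, and that of EPHA2 because it is a called gene with the same letters. Both come from RefSeq on GRCh38.p14, written 5′ to 3′ on the gene's strand with matches in capitals. CRX lies at chr19:47821687-47821986 on the plus strand and EPHA2 at chr1:16156020-16156319 on the minus strand, each from 250 bases before to 50 after the start.
CRX: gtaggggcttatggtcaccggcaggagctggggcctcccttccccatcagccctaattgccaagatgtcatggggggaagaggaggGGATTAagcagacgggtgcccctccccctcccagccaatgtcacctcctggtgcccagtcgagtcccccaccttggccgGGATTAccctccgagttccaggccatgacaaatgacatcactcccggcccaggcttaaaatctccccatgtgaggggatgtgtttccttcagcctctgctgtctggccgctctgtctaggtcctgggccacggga
EPHA2: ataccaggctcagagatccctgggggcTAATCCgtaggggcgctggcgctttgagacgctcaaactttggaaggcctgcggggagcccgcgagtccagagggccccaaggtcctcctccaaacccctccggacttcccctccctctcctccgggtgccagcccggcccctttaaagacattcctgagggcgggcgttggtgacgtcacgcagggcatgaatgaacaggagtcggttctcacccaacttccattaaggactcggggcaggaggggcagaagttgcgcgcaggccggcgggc
The CRX window held 2 matches and that of EPHA2 held 1. Of 11190 tested genes with a promoter in the table, 4.62% held TAATCC on either strand, against 6 of 125 promoters of genes called lower (4.80%) and 0 of 27 of genes called higher. The share among genes called lower was close to the background. A match is a description of these letters and not a binding site.

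Of 16006 genes tested, 241 passed at an adjusted p under 0.05 (1.51%), with 42 higher (0.262%) and 199 lower (1.24%) in the libraries labelled shCRX. All 241 had arms that did not overlap, as did 8371 of all genes tested (52.3%). Before adjustment, 2747 genes (17.2%) passed the same threshold. The median log2 fold change over all genes was 0.102, and single changes are to be read against it. Calls within a gene list are to be read against the shares called over all genes. Each library weighed heavily on the calls: 47 were made without the parental library (1 higher, 46 lower), 268 without the vector library (102 and 166), 61 without shCRX replicate 1 (41 and 20) and 15 without shCRX replicate 2 (2 and 13). The excess of lower over higher calls thus turned when shCRX replicate 1 was left out. Of the 69 called genes named here, only SIX3, RPL8, RAB5IF, ANKRD63 and H1-10 were called under every alternative, each library's omission included. Of these 69, 14 were called without the parental library, 42 without the vector library, 11 without shCRX replicate 1 and 7 without shCRX replicate 2. The 7 were those 5 with ENDOG and PDF, so the other 62 of the 69 lost their call without shCRX replicate 2. The 11 were those 5 with CYP51A1, FEM1A, H2BC18, OGA, SCML1 and SRXN1. The 14 were those 5 with CADPS, CYP51A1, ENDOG, FTH1, H2BC18, LAMA1, MGAT2, SPOCK1 and SRXN1.

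The called groups differed in kind. The 42 genes called higher were 29 protein-coding genes and 13 pseudogenes, and the 199 called lower were 148 protein-coding genes, 23 pseudogenes, 7 long noncoding or antisense genes and 21 others. Median GC content was 43.4% for genes called higher, 58.8% for genes called lower and 49.7% for all genes. Over 15581 genes the fold change had a Spearman correlation of -0.352 with GC content in HD-MB03 and of 0.284 in D425, across genes that are not independent replicates and share the same libraries. After a correction for GC content and length, 141 genes passed, 24 of them higher, and 38 of the 69 called genes named here were called. The part of GC content in single changes was not tested beyond this.

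**Figure D2:**
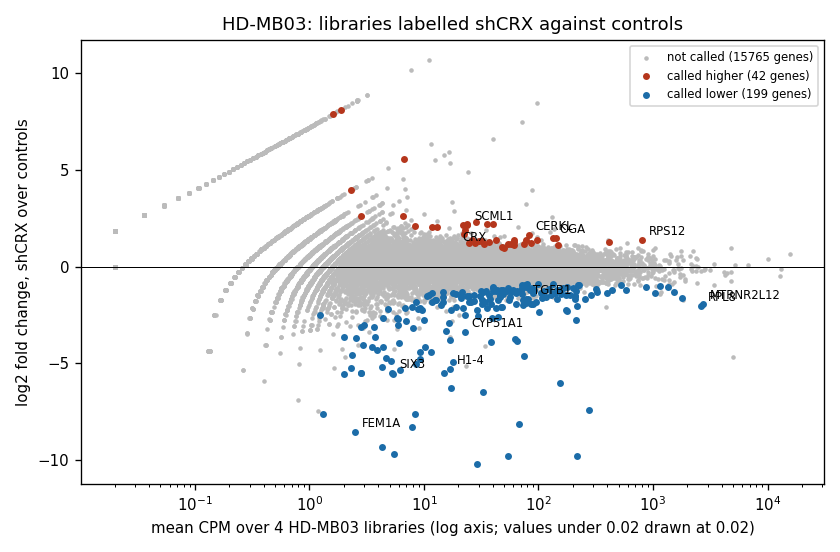
Each point is a gene, with mean CPM over the 4 HD-MB03 libraries on a log axis and the log2 fold change of the libraries labelled shCRX over controls on the vertical axis. The 42 genes called higher are red and the 199 called lower are blue; arcs at low levels are genes with few or no control counts, and CRX lies among the genes not called.

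Among the largest rises were regulators of transcription and of RNA. SCML1, a Polycomb-related protein, was at 10.4 and 6.97 CPM in the parental and vector libraries and at 27.9 and 50.1 CPM in shCRX replicates 1 and 2. Its log2 fold change was 2.16 ± 0.36 (adjusted p = 0.0138 by edgeR). The lower shCRX value stood clear of the higher control value. ZNF708, a KRAB zinc finger repressor, was at 3.64 and 2.68 CPM in the controls and 14.9 and 12.4 in the shCRX libraries (log2 fold change 2.10 ± 0.40). ZNF721, ZNF107 and ZNF43, of the same family, rose by 1.38, 1.26 and 1.25 on the log2 scale. These genes lie in families of close copies, so reads that align to more than 1 copy could be left uncounted. HIRIP3, a histone chaperone, and CNOT6L, a deadenylase that shortens poly(A) tails, each rose by 1.38. None of these 7 genes was called without shCRX replicate 2, and SCML1 was called without shCRX replicate 1 (adjusted p = 0.0102 by edgeR) but not without either control (0.0927 and 0.0712).

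Other rises touched sugar signalling, transport and the cytoskeleton. OGA, the enzyme that removes O-GlcNAc from proteins, stood at 73.4 and 66.5 CPM in the controls and 187 and 204 CPM in the shCRX libraries. The change of 1.48 ± 0.23 (adjusted p = 0.0103 by edgeR) kept its call without the vector library or shCRX replicate 1, but not without the parental library (0.0714) or shCRX replicate 2 (0.0943). PBXIP1, a partner of PBX homeobox proteins, was at 72.9 and 77.7 CPM in the controls and at 213 and 211 CPM in the shCRX libraries. The libraries of each arm lay close together for these genes. HOOK1, which links cargo to microtubule motors, was at 11.97 and 9.12 CPM in the controls and 39.3 and 29.5 CPM in the shCRX libraries. COMMD6, a small COMM-domain protein, was at 7.29 and 11.8 CPM against 41.0 and 30.6 CPM. Without shCRX replicate 2 the adjusted p by edgeR was 0.106 for PBXIP1, 0.0991 for HOOK1 and 0.0943 for COMMD6. CCSAP and CEP44, proteins of the centriole and spindle, rose by 1.35 and 1.34, FSD1L by 1.36 and SYPL1, a vesicle protein, by 1.29. ARRDC3, an arrestin-like regulator of receptor trafficking, had the largest rise among the called protein-coding genes at 2.32 ± 0.52, near the threshold (adjusted p = 0.0497 by edgeR), and lost its call without any one of the 4 libraries.

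Housekeeping genes moved both ways, in the most deeply counted range of the data. RPL8, a protein of the large ribosomal subunit, was at 4539 and 3868 CPM in the parental and vector libraries and 982 and 1097 CPM in shCRX replicates 1 and 2. The fall of 2.02 ± 0.21 on the log2 scale (adjusted p = 0.00129 by edgeR) rested on at least 7214 counts in each library and was called without any 1 of them. RPS9, of the small subunit, was at 2908 and 2485 CPM against 896 and 839 CPM, and RPS16 at 2314 and 2074 against 901 and 840 CPM. RPS12 went the other way, with 412 and 495 CPM in the controls and 1187 and 1140 CPM in the shCRX libraries (log2 fold change 1.36 ± 0.23). RPL34 and RPL26 rose by 1.26 and 1.17, and RPL27, RPS15, RPS14 and RPL36AL were lower with log2 fold changes of -1.35, -1.20, -1.02 and -0.92. In all, 3 of 74 tested ribosomal protein genes rose and 7 fell, beside 0.262% and 1.24% of all genes. The ribosomal median was -0.13, beside 0.10 for all genes. Without the parental library, or without either shCRX library, RPL8 was the 1 member still called. These genes have many processed pseudogenes, so their reads are uncertain.

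Among 74 nuclear genes of oxidative phosphorylation, 1 rose and 4 fell, beside 0.262% and 1.24% of all genes. ATP5PO, a stalk subunit of ATP synthase, rose by 1.31 ± 0.28. CYC1, cytochrome c1 of complex III, was at 505 and 335 CPM in the controls and 144 and 165 CPM in the shCRX libraries. NDUFS7 of complex I, ATP5PD of ATP synthase and COX5A of complex IV had log2 fold changes of -1.47, -1.42 and -1.07. The list's median was -0.09. It had 0 called members without the parental library and without either shCRX library, and 7 without the vector library. PFKP, a phosphofructokinase, was the only called member of 39 hypoxia and glycolysis genes, with a log2 fold change of -1.18 ± 0.25. BSG, a partner of lactate transporters, and PTPRF, a receptor phosphatase, fell by 1.05 and 0.96. MTRNR2L12, a nuclear gene that resembles mitochondrial ribosomal RNA, was at 5633 and 3023 CPM against 1038 and 1206 CPM (adjusted p = 0.0499 by edgeR). Without shCRX replicate 2, PFKP, BSG, PTPRF and MTRNR2L12 had adjusted p of 0.171, 0.165, 0.218 and 0.187 by edgeR. The 37 mitochondrial genes themselves held 0 counts in these files.

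**Figure D3:**
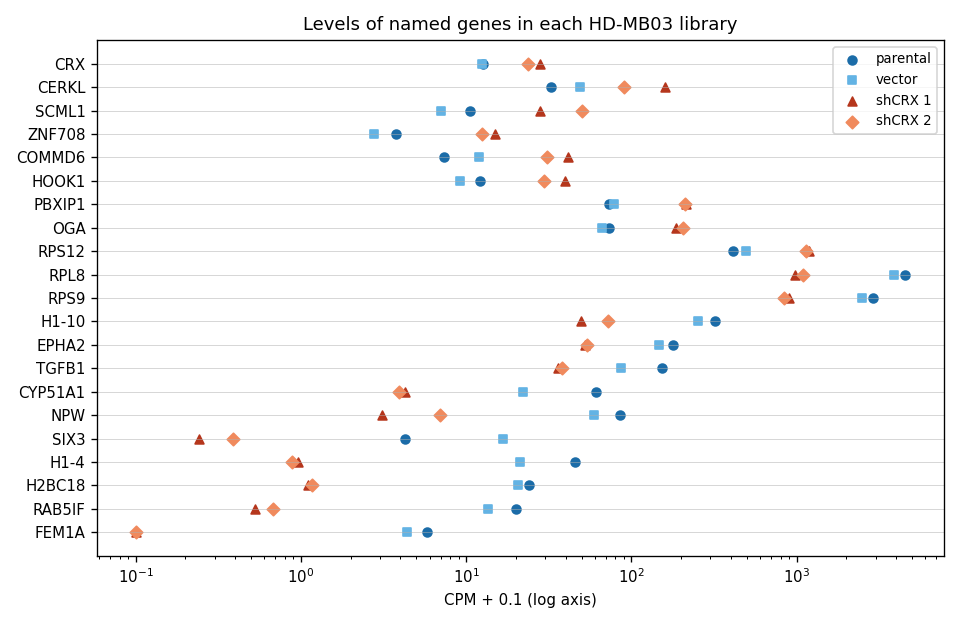
Points give CPM + 0.1 on a log axis for 21 named genes in each HD-MB03 library, blue for the controls and red or orange for the libraries labelled shCRX. The arms do not overlap in any of these genes; CRX and the genes down to RPS12 lie higher in the libraries labelled shCRX, and RPL8 and the genes under it lie lower.

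The histone genes whose messages normally end in a stem-loop rather than a poly(A) tail formed the list with the lowest median. Of 20 tested members, 6 fell and 0 rose, beside 1.24% and 0.262% of all genes, and the median log2 fold change was -2.73. A further 33 of the list's 59 members matched no identifier and were not tested. Several members had counts almost only in the controls and were tested because of them, so the count of falls and the median are a description. The median was -1.30 over the 13 members tested at equal depth and -1.52 over the 15 with at least 5 counts in each control. Both choices can again admit members through their control counts, so neither is a check. H1-4, a linker histone, was at 45.3 and 20.9 CPM in the controls and at 0.858 and 0.788 CPM in the shCRX libraries. H2BC18 and H2BC13, core histones, were at 23.9 and 20.4, and 23.9 and 11.3 CPM in the controls, and at most at 1.07 and 0.858 CPM in the shCRX libraries. H1-5 had 10 counts over the controls and 0 over the shCRX libraries. Its control level, with these 10 counts taken as exact, was 23.8-fold above a floor of 3 counts over the shCRX group. H4C3 had 21 against 3 counts, a ratio of 49.9 (95% counting interval 14.9 to 261). H3C4 fell by 4.14 on the log2 scale.

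Some members of that list moved less. H2BC12 and H1-2 had its highest mean levels over the 4 libraries, a mean that a fall itself lowers. In the parental library H1-4, which fell, was at 45.3 CPM and H1-2 at 45.8 CPM. H2BC12 was at 105 and 74.5 CPM in the controls and 70.3 and 93.5 in the shCRX libraries, where the arms overlapped, and H1-2 was at 45.8 and 56.3 against 68.1 and 104.8 CPM (log2 fold change 0.76, adjusted p = 0.523 by edgeR). Among 10 histone variants with poly(A) tails, H1-10, a replication-independent linker histone, was the 1 called member. It was at 319.6 and 254.1 CPM in the controls and 49.6 and 71.7 CPM in the shCRX libraries, with a log2 fold change of -2.24 ± 0.28 (adjusted p = 0.00302 by edgeR). Counts of called replication histones were 1, 5, 1 and 0 without the parental library, the vector library, shCRX replicate 1 and shCRX replicate 2, with medians of -1.73, -3.07, -2.75 and -2.44. Of 41 DNA replication genes and 37 mitosis genes 0 passed by edgeR, DESeq2 or limma-voom, with 2 and 1 under an unadjusted p of 0.05 (17.2% of all genes were) and medians of -0.07 and 0.17. Some histone genes are close copies, so their reads are uncertain. The share of reads in small RNA genes, which also lack poly(A) tails, came to 0.0512% and 0.0254% in the controls, against 0.0113% and 0.0130% in the shCRX libraries. The part of incomplete poly(A) selection in these falls was not tested.

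The promoter of H1-4 is shown because it is the called histone gene with the highest control level among the replication histones. It comes from RefSeq on GRCh38.p14 at chr6:26156079-26156378 on the plus strand, with CCAAT and TATAAA matches on either strand in capitals.
H1-4: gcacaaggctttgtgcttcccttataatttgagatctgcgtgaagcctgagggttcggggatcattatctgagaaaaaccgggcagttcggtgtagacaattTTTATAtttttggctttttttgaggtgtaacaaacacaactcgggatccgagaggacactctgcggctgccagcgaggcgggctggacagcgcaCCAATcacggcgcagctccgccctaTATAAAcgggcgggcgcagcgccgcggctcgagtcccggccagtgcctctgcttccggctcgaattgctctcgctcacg
CCAAT was present in 36.8% and TATAAA in 5.63% of the promoters of tested genes, and in 37.6% and 7.20% of those of genes called lower.

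The other large falls were in genes of varied function. FEM1A, a substrate receptor of a CUL2 ubiquitin ligase, had 11 and 8 counts in the controls and 0 in both shCRX libraries. Its control level, with these counts taken as exact, was 45.2-fold above a floor of 3 counts over the shCRX group. RAB5IF, a membrane protein of the endoplasmic reticulum, was at 19.8 and 13.4 CPM in the controls and at 0.429 and 0.573 CPM in the shCRX libraries (log2 fold change -5.01 ± 0.62, adjusted p = 0.00286 by edgeR). ENDOG, a mitochondrial nuclease, was at 18.2 and 17.7 CPM against 0.357 and 0.931 CPM. In each the controls lay far above the shCRX libraries. ANKRD63 was at 21.3 and 17.2 CPM in the controls and 0.786 and 1.36 in the shCRX libraries, and NPW, the precursor of neuropeptide W, was at 84.8 and 59.5 against 3.00 and 6.80 CPM. TMEFF1, a transmembrane protein, had 15 counts over the controls and 2 over the shCRX libraries, a ratio of 53.5 (interval 12.4 to 482). PDXP, a pyridoxal phosphate phosphatase, PDF, a mitochondrial peptide deformylase, MGAT2, a Golgi enzyme of N-glycans, CEBPD, a leucine zipper transcription factor, and IER5L fell by 4.06 to 5.53 on the log2 scale. CADPS, a vesicle priming factor, had 2 counts in the parental library and 26 in the vector library, and without the latter its change was -1.51 (adjusted p = 0.631 by edgeR).

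Single-exon genes were frequent among the genes called lower, the replication histones included, a property the choice of libraries did not use. In the annotation, 215 of 12957 tested protein-coding genes have 1 exon (1.66%), and 16 of the 148 called lower (10.8%), 0 of the 29 called higher and 10 of the 20 largest falls do. Those 10 include the replication histones H3C4, H2BC13, H1-4, H4C3 and H1-5 described above. The others are IER5L, ANKRD63, CEBPD, MGAT2 and FEM1A. Of single-exon genes 7.44% were called lower, against 1.04% of genes with more exons. Of uniquely aligned reads, 16.8% and 10.8% were assigned to no counted feature in the parental and vector libraries, against 7.78% and 7.93% in the shCRX libraries. Whether these reads lay in introns, on the other strand or between genes cannot be read from the counts. The part of such reads in the falls was not tested.

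Antioxidant genes under NRF2 gave 2 falls and 0 rises of 27, beside 1.24% and 0.262% of all genes, with a median of -0.07. SRXN1, which restores peroxiredoxins, had 17 counts over the controls and 3 over the shCRX libraries, a ratio of 40.4 (interval 11.7 to 215). FTH1, the ferritin heavy chain, was at 49.97 and 52.5 CPM in the controls and 11.4 and 14.97 CPM in the shCRX libraries (log2 fold change -1.96 ± 0.29). Without shCRX replicate 2 neither was called (adjusted p = 0.0943 and 0.0642 by edgeR). CYP51A1, a demethylase of cholesterol synthesis, was the only called member of 32 lipid synthesis genes. It was at 60.9 and 22.0 CPM in the controls and 4.15 and 3.80 in the shCRX libraries, and it too lost its call without shCRX replicate 2 (adjusted p = 0.0659 by edgeR).

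Photoreceptor genes were examined because CRX drives them in the retina. Of 62 tested members of 3 lists, 1 rose and 0 fell, beside 0.262% and 1.24% of all genes. In all 4 libraries, 13 of the 62 were under 1 CPM. Of the 49 others, 22 had a log2 fold change above 0 and 27 below. Of 11 photoreceptor transcription factors 0 passed by edgeR, DESeq2 or limma-voom and 1 was under an unadjusted p of 0.05 (17.2% of all genes were), with a median of -0.41. OTX2, the partner homeobox factor, was at 1871 and 1650 CPM in the controls and 1757 and 1483 CPM in the shCRX libraries. NRL, the rod-determining leucine zipper factor, was at 422 and 246 against 225 and 195 CPM (log2 fold change -0.67 ± 0.55, adjusted p = 0.572 by edgeR). For OTX2 the arms overlapped, and for NRL the vector library lay close to the shCRX libraries. NEUROD1, a basic helix-loop-helix factor, was at 745 and 1064 CPM in the controls and 1295 and 1091 CPM in the shCRX libraries.

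Of 26 phototransduction genes 0 passed by edgeR or limma-voom, 1 by DESeq2 and 4 at an unadjusted p under 0.05, with a median of 0.26. Over all genes, 17.2% were under that unadjusted p. AIPL1, a chaperone of the phosphodiesterase, was at 259 and 323 CPM in the controls and 287 and 234 CPM in the shCRX libraries. GNGT1, the rod transducin gamma subunit, was at 106.7 and 194 against 274 and 312 CPM (log2 fold change 0.96 ± 0.33, adjusted p = 0.170 by edgeR), and GNB1, a beta subunit, was at 692 and 561 against 477 and 458 CPM. Of 25 genes of the disc, cilium, matrix and synapse, CERKL, a ceramide-kinase-like protein linked to retinitis pigmentosa, was the only call. It was at 32.3 and 48.8 CPM in the controls and 159 and 90.0 CPM in the shCRX libraries, and lost its call without shCRX replicate 2 (adjusted p = 0.0600 by edgeR), shCRX replicate 1 (0.256) or the parental library (0.283). IMPG2, a proteoglycan of the photoreceptor matrix, was at 1218 and 1098 against 1959 and 1434 CPM (log2 fold change 0.55 ± 0.26, adjusted p = 0.301 by edgeR). These medians moved with the settings: that of the phototransduction list was -0.13 with limma-voom.

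In 11 of these 62 genes the effect in HD-MB03 differed from that in D425, 9 with a positive difference, beside 666 of all genes (4.16%; 238 positive, 1.49%, and 428 negative, 2.67%). The difference was 3.54 for GNGT1, 1.47 for IMPG2 and 2.35 for CERKL, and it was also positive for CDHR1, EYS, CRB1, MAK, RP1L1 and GUCA1B. It was -4.05 for SAMD11, a regulator of photoreceptor transcription, and -1.49 for UNC119, a trafficking protein. Within HD-MB03 the log2 fold changes were -0.90 for SAMD11, -1.02 for UNC119 and 0.29 for GUCA1B, whose difference was 4.20. Of the 11, CERKL was the 1 that passed within HD-MB03.

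In the TGF-beta and activin lists, TGFB1 and NEDD9 were the only calls by edgeR within HD-MB03, where 1.51% of all genes were called. TGFB1, a ligand, was at 154 and 85.8 CPM in the parental and vector libraries and 35.9 and 37.8 CPM in the shCRX libraries. Its fall of 1.70 ± 0.34 (adjusted p = 0.0308 by edgeR) was the only call among 31 components, whose median was -0.11. TGFBR1, the type I receptor, was at 134.8 and 122 CPM against 204 and 173 CPM (log2 fold change 0.55, adjusted p = 0.215 by edgeR). SMAD3, the receptor-activated mediator, was at 223 and 182 against 195 and 165 CPM, with overlapping arms, and LTBP4, which stores latent ligand, was at 395 and 492 against 285 and 273 CPM (log2 fold change -0.67, adjusted p = 0.215 by edgeR). Among 31 response genes, NEDD9, a scaffold of focal adhesions, fell by 2.20 ± 0.48 beside TGFB1, which is in both lists, and VIM, an intermediate filament gene, was at 64.0 and 81.5 against 137 and 141 CPM (adjusted p = 0.0779 by edgeR). The effect differed from that in D425 in 5 of the 31 components and 6 of the 31 response genes, beside 4.16% of all genes. The differences included -9.37 for INHBB, -3.80 for SMAD7 and -2.79 for LTBP3 among the components. Within HD-MB03 the log2 fold changes of these genes were -2.83, -0.93 and -0.95. Among the response genes the differences included -4.12 for SPHK1, -3.22 for SMAD6 and -1.95 for PMEPA1, with -1.61, -1.21 and -0.31 within HD-MB03. SMAD7 is also in both lists. Without shCRX replicate 2, TGFB1 and NEDD9 had adjusted p of 0.163 and 0.176. Without the parental library they had 0.286 and 0.238, without shCRX replicate 1 0.192 and 0.219, and without the vector library 0.0260 and 0.103. Leaving out shCRX replicate 1 gave 1 call in the other direction among the components.

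Developmental signalling gave single calls, to be read beside the 1.24% of all genes called lower. NOG, a secreted BMP antagonist, was at 19.8 and 11.8 CPM in the controls and 5.36 and 5.66 in the shCRX libraries, 1 of 24 BMP genes. GLI2, a transcription factor of Hedgehog signalling, was at 34.4 and 21.5 against 10.7 and 10.4 CPM, 1 of 11 genes. EPHA2, an ephrin receptor, was at 177 and 146 against 52.5 and 54.1 CPM, 1 of 37 receptor kinase genes. All 3 fell, with log2 fold changes of -1.52, -1.41 and -1.60, and were called without the vector library but not without any other. LAMA1, a laminin chain, and AGRN, a heparan sulfate proteoglycan, were the 2 calls among 41 matrix and integrin genes, both lower. LAMA1 was at 25.5 CPM in the parental and 110 CPM in the vector library against 10.2 and 11.3 CPM, and without the vector library its fold change was -1.24 (adjusted p = 0.203 by edgeR). SIX3, a homeobox factor of the eye field and forebrain, was at 4.16 and 16.6 CPM in the controls and 0.143 and 0.287 in the shCRX libraries, 1 of 18 genes, and UNCX, a homeobox factor, was at 26.0 and 36.5 against 6.72 and 7.73 CPM, 1 of 12 rhombic lip genes. UNCX lost its call without any one of the 4 libraries (adjusted p of 0.0812 to 0.164 by edgeR), and AGRN had 0.0779 without shCRX replicate 2.

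Many lists had 0 called members by edgeR or limma-voom. Over all 16006 genes, 17.2% were under an unadjusted p of 0.05 and DESeq2 called 740, and the counts here are to be read against these. Of 39 MYC target genes 7 were under an unadjusted p of 0.05 and DESeq2 called 1, and of 20 Group 3 driver genes these counts were 5 and 2. Of 47 neuronal genes they were 10 and 1, of 20 NOTCH genes 5 and 3, of 30 WNT genes 4 and 1, and of 26 p53 targets 2 and 0. For cyclin and CDK inhibitor genes (19) they were 6 and 1, for MAPK and immediate early genes (34) 7 and 3, for IGF genes (26) 4 and 0, for SOX and stem cell genes (17) 4 and 2, and for BCL2 family genes (16) 3 and 2. For stress response (38) and heat shock genes (25) they were 2 and 1 each, for MHC and interferon genes (30) 3 and 2, for cancer-testis genes (17) 1 and 0, for mesenchymal genes (22) 6 and 2, and for splicing genes (42) 11 and 2. The 15 nuclear-retained and small noncoding RNA genes had 6 and 3, and limma-voom called 1 of them. Of the 10 marker lists with a tested member, 1 had a call, GLI2 among the SHH markers.

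The genes that moved in HD-MB03 were then set beside the same contrast in D425, which shares no library with it but came from the same fit. In D425, 476 genes passed (2.97%). Of the 199 genes called lower in HD-MB03, 149 had a positive log2 fold change in D425 and 49 a negative one, 42 were called higher there and 4 lower, and the difference between lines passed for 157. Of all 16006 genes, 8290 were positive and 7666 negative in D425, with 257 called higher and 219 lower, and the difference passed for 666 (4.16%). Of the 42 called higher, 9 were positive and 33 negative in D425, 1 was called lower there, and the difference passed for 35. Both groups of genes were chosen by their HD-MB03 effect, which is part of the difference. The counts of differences among them are therefore a description. Across 16006 genes the effects of the lines had a Spearman correlation of -0.143, and of -0.257 over 9586 genes of at least 10 CPM, as a description. The genes called lower in both lines were IGSF11, SPOCK1, RPL36AL and the pseudogene RPL8P3, named because they were so few. IGSF11, a cell adhesion protein, was at 7.81 and 13.4 CPM in the HD-MB03 controls and 1.22 and 1.36 CPM in the shCRX libraries, with log2 fold changes of -3.03 in HD-MB03 and -2.52 in D425. SPOCK1, a matrix proteoglycan, was at 49.5 and 86.9 against 22.9 and 18.1 CPM, with -1.73 and -1.29. In HD-MB03, IGSF11 lost its call without any one library (adjusted p of 0.0780 to 0.130 by edgeR), and SPOCK1 lost it without shCRX replicate 2 (0.165), shCRX replicate 1 (0.0970) or the vector library (0.0946).

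**Figure D4:**
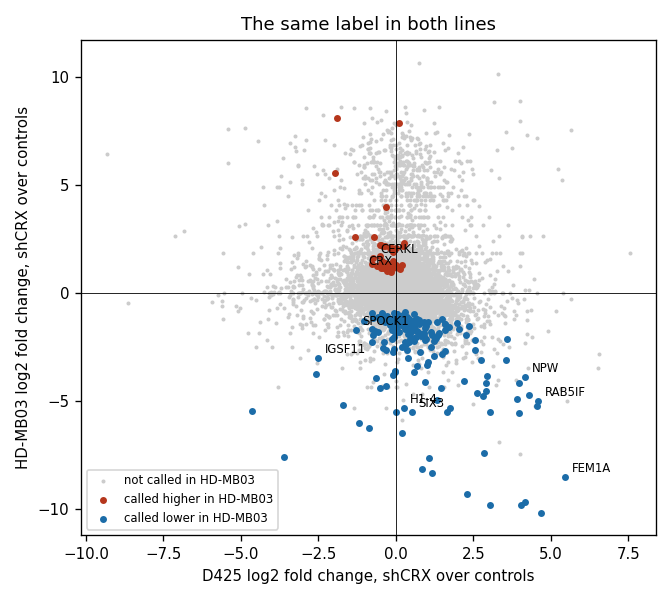
Each point is a gene, with the log2 fold change of the libraries labelled shCRX over controls in D425 on the horizontal axis and in HD-MB03 on the vertical axis. Of the 199 genes called lower in HD-MB03 (blue), 149 lie right of 0, and of the 42 called higher (red), 33 lie left of 0.

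Levels were also set beside the library numbers. In 231 of 16006 genes (1.44%) the 5 libraries numbered 20 to 62, which are the D425 shCRX and HD-MB03 control libraries, all lay above the other 5. Genes called lower in HD-MB03 meet part of this by their choice, so the count was read among the 3496 genes whose HD-MB03 controls both lay above both shCRX libraries. It held for 231 of these (6.61%) and for 64 of the 199 called lower (32.2%). All 5 lay below the others in 193 of the 4875 genes with the HD-MB03 controls below (3.96%), and in 8 of the 42 called higher (19.0%). The called genes were also chosen for their change in HD-MB03, so these shares are a description. RAB5IF was at 10.9, 27.5 and 14.1 CPM in the D425 shCRX libraries and between 0.392 and 0.968 in the D425 controls, against the opposite order in HD-MB03 given above. FTH1 was at 55.8, 40.7 and 51.2 CPM in the D425 shCRX libraries and between 7.84 and 11.8 in the D425 controls. Both genes were high in the libraries of low number in either line. Each number set holds 1 arm only within a line, so no value within a set can be given. Number and label cannot be told apart within HD-MB03, nor number and line in the difference between lines.

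**Figure D5:**
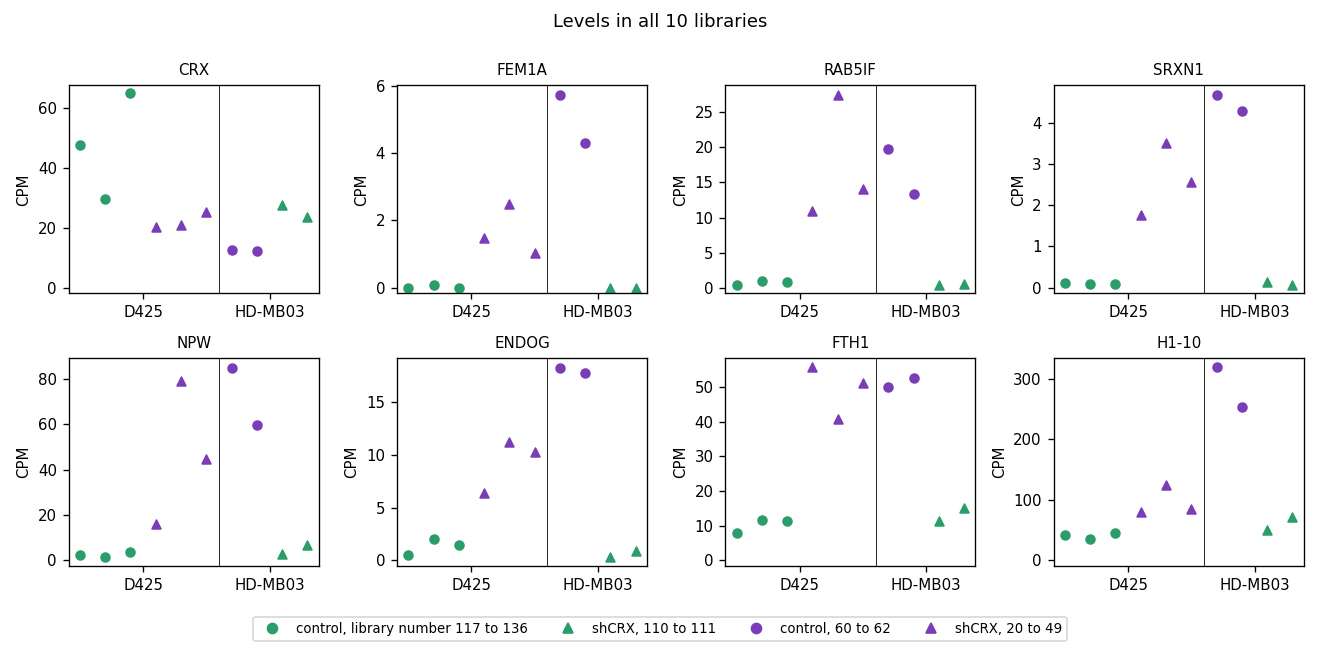
Each panel gives CPM of 1 gene in the 6 D425 and 4 HD-MB03 libraries, circles for controls and triangles for shCRX, purple for library numbers 20 to 62 and green for the higher numbers. In the panels other than CRX the purple points lie above the green ones in both lines.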

How the data were processed

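Gene counts were deposited by the authors, 1 set per library and not normalised. Per the labels' protocols, libraries were made from poly(A)-enriched RNA with an Illumina TruSeq kit. The submitters' processing notes name GRCh37 (hg19) and the tools HISAT2, HTSeq, bcl2fastq and DESeq2, with versions, strand setting and annotation not given in the sources used here. Of 57820 identifiers, 52338 matched a symbol in GENCODE 29, which is of another build and gave symbols, gene types, GC content, lengths and exon numbers only. HTSeq summary entries entered neither library sizes nor tests. Counts were fitted in R 4.3.3 with edgeR 4.0.16 (TMM scaling, filterByExpr, robust quasi-likelihood) over all 10 libraries in 4 groups of line and arm, with 6 residual degrees of freedom and a biological coefficient of variation of 26.0%. Parental and vector libraries were together the controls. Tests were two-sided, p was adjusted by Benjamini-Hochberg over 16006 genes, and calls were at 0.05. CPM uses effective library sizes, except the floors and marker sums, which use totals. Alternatives included limma 3.58.1 and DESeq2 1.42.0. On simulated data for this contrast (16006 genes), 24.2%, 71.6% and 89.6% of genes changed by 1, 2 and 3 on the log2 scale were recovered, with 7 false calls of 131. The simulated spread followed its trend with level only, without effects of GC content or of single libraries. These rates therefore may not carry over to the real libraries.

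Named genes were CRX, the 20 largest rises and falls among called protein-coding genes of at least 1 CPM with no overlap of arms, the 10 most abundant of these, up to 6 called members of each of 49 gene lists, and the 3 most abundant members of photoreceptor and TGF-beta lists with few calls. IGSF11, SPOCK1 and RPL8P3, and genes high in 1 library, were chosen after their values were seen. The libraries, lists and rules were chosen with earlier results of these data known.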

Additional observations from a re-analysis of the deposited data

Results flagged for a closer look

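The effect of the shCRX label differed between the lines in 57 of the genes whose levels are described. The photoreceptor and TGF-beta genes for which only the difference is named come besides these. The test was the contrast of the effects in the same edgeR fit (HD-MB03 minus D425, log2 scale, 4 HD-MB03 and 6 D425 libraries). It is also the contrast of the higher against the low library numbers, so line and number cannot be told apart in it. The adjusted p of these 57 differences ran from 0.000151 for RAB5IF to 0.0422 for H3C4. Over all genes tested, the difference passed for 666 of 16006 (4.16%). Most of these 57 genes were named for their call in HD-MB03, and that effect is part of the difference, so their number is a description. Groups of 1 to 3 libraries were too small for a test of single outlying libraries.

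CRX and 3 photoreceptor genes had positive differences, that is a higher effect in HD-MB03: 1.47 for IMPG2, 2.14 for CRX, 2.35 for CERKL and 3.54 for GNGT1. Zinc finger genes did so too, with 1.71 for ZNF107, 1.81 for ZNF721, 1.87 for ZNF43 and 2.27 for ZNF708, and ribosomal genes with 1.59 for RPL26 and 1.61 for RPS12. The other positive differences were 1.38 for CEP44, 1.56 for OGA, 1.74 for HIRIP3, 1.75 for CNOT6L and 1.82 for CCSAP. To these were added 1.93 for PBXIP1, 2.00 for COMMD6, 2.14 for FSD1L, 2.20 for HOOK1 and 2.57 for SCML1.

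Negative differences in histone genes were -8.69 for H1-5, -5.85 for H2BC18, -5.08 for H3C4 and -3.47 for H1-10, with few or no counts in 1 arm for H1-5 and H3C4. In ribosomal protein genes they were -1.97 for RPL8, -1.62 for RPS15, -1.55 for RPS9, -1.26 for RPS16 and -1.25 for RPS14, and in genes of oxidative phosphorylation -2.08 for NDUFS7, -1.56 for CYC1, -1.26 for COX5A and -1.25 for ATP5PD. In genes of signalling, matrix and development they were -6.03 for SIX3, -3.88 for NOG, -3.37 for GLI2, -3.03 for AGRN, -2.78 for NEDD9, -2.65 for UNCX, -2.32 for TGFB1, -2.04 for EPHA2 and -1.36 for LTBP4. Among the remaining genes they were -14.00 for FEM1A, -9.77 for SRXN1, -9.61 for RAB5IF, -9.51 for TMEFF1, -9.02 for PDF, -8.58 for PDXP, -8.12 for CEBPD and -8.04 for NPW. The others were -7.58 for ENDOG, -7.47 for MGAT2, -7.05 for ANKRD63, -6.25 for IER5L, -4.21 for FTH1, -4.06 for CYP51A1 and -1.20 for BSG. The differences for FEM1A, H1-5, SRXN1 and TMEFF1 rest on 0 to 3 counts in an arm and are fitted values, not bounds.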

How the results depend on the processing

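No paired analysis was possible because the HD-MB03 controls carry no replicate number. Against 241 called genes in HD-MB03, 790 were called with no filter on low counts (404 higher, 386 lower), 141 with GC content and length corrected and 740 with DESeq2, and leaving out single libraries gave 15 to 268. RLE scaling gave 272 calls and limma-voom 169, with 11.8% and 5.92% of them higher against 17.4% of the 241, and leaving out the vector library or shCRX replicate 1 gave 38.1% and 67.2%. The 666 differences between lines became 1579, 330 and 1310 under the same 3 alternatives, and 179 to 672 with single libraries left out. Over the fixed gene lists, 36 calls became 120 with no filter and 97 with DESeq2, and 3 to 41 with single libraries left out. CRX stayed above 0 and uncalled under each alternative, from 0.92 to 1.16. AIPL1 reversed to 0.0117 without the vector library (-0.3137 to 0.0117 with single libraries left out) and SMAD3 to 0.0247 with GC content and length corrected, neither of them called. Of 69 called genes named, DESeq2 lost 0, limma-voom 26 and the correction for GC content and length 31. A fit on the HD-MB03 libraries alone lost 11 of them. It called 294 genes, 195 of which were among the 241. Median log2 fold change over all genes was 0.03 with RLE scaling, 0.15 with library totals and 0.20 with no filter, against 0.10, so medians of lists near 0 carry no direction. At about 2 M reads in each control, changes of 1 on the log2 scale were mostly not recovered in the simulation (24.2% were). The causes of these shifts were not tested.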

Other observations

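Some genes differed between the libraries of an arm more than between arms, chosen after their values were seen and given with no test of that spread. TNC, a matrix glycoprotein, was at 419 CPM in the parental library, 592 and 573 CPM in the shCRX libraries and 35.9 CPM in the vector library. SALL1, a zinc finger factor, was at 205, 175 and 145 CPM in the parental and shCRX libraries and 34.9 in the vector library. MFSD4A, a transporter-like protein, was at 0 in the parental and 61.1 CPM in the vector library, and at 2.57 and 1.86 CPM in the shCRX libraries. ELN, elastin, was at 0 and 33.8 CPM in the parental and vector libraries, and CRABP2, a retinoic acid binding protein, at 4.68 and 123 CPM.

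Immediate early genes, which respond within minutes to growth factors and handling, differed between the shCRX libraries. EGR1 was at 10.4 and 11.3 CPM in the controls, 278 CPM in shCRX replicate 1 and 54.3 CPM in replicate 2 (log2 fold change 3.94, adjusted p = 0.412 by edgeR). FOS was at 0 and 1.61 CPM in the controls and at 118 and 40.7 CPM in the shCRX libraries, and FOSB at 2.08 and 1.07 against 82.3 and 12.2 CPM. Neither passed (adjusted p = 0.313 and 0.385 by edgeR).

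Of the genes at 10 CPM or more in shCRX replicate 2 alone, IGF2BP1, an RNA-binding protein, was at 25.7 CPM there, at most 1.61 CPM in the other HD-MB03 libraries, and at 219 to 306 CPM in D425. NUP210, IRS4, SLIT2, LCP1, PLAT, BST2 and KRT8 averaged at most 8.02 CPM in the D425 controls and 3.97 CPM in the D425 shCRX libraries.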
